A study of Homo sapiens with 9 samples.

Results

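The metalloproteinases of the metzincin type and their inhibitors were read out in LN229, an established human glioblastoma cell line, as 57 genes of the 19356 in the table. The members are all rows whose symbol is MMP, ADAM, ADAMTS or TIMP with a number: 19 MMP, 15 ADAM, 19 ADAMTS and 4 TIMP genes. Among the 67 rows that start this way, 5 pseudogenes and 5 antisense RNAs were left out. Polyadenylated RNA was sequenced from 3 groups of 3 libraries, namely LN229 wild-type cells (WT) and the ARNT2 knockout lines B3 and C4, which the labels give as separate CRISPR lines of the same genotype. All groups were grown in DMEM with 5% FBS, at 5% CO2 and 37 °C, and the study asks what ARNT2 does in proliferation and in differentiation. Whether B3 and C4 each grew from 1 cell is not given in the sources used here, and in either line alone the loss of ARNT2 and any other trait of that line cannot be told apart. Nor is it said whether a group's libraries are separate cultures. The p-values thus cover the spread among the libraries at hand, which may be technical.

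These enzymes carry a zinc ion in the active site and are made as inactive precursors. MMPs, or matrix metalloproteinases, cut collagens, other matrix proteins and further proteases, either as secreted enzymes or anchored in the membrane. ADAMs are membrane proteins that release the outer part of growth factor precursors, adhesion molecules and Notch receptors, a step called shedding. ADAMTS proteins are secreted, and several of them cut the large hyaluronan-binding proteoglycans that fill the space between cells in the brain. TIMPs are small secreted inhibitors of these enzymes, and TIMP2 also takes part, with the membrane enzyme MMP14, in the activation of the MMP2 precursor.

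The values are log2 values scaled between libraries, and read depth is unknown. Changes are log2 differences ± SE from a limma fit over all 9 libraries. Genes count as called, and as having risen or fallen, where the Benjamini-Hochberg p over the 16457 genes past a filter on low values was below 0.05. ARNT2, the targeted gene, had 13.56, 13.59 and 13.58 in WT, 11.91, 11.90 and 11.86 in B3, and 12.22, 12.15 and 12.05 in C4. It was lower in every knockout library, with changes of -1.69 ± 0.03 in B3 and -1.43 ± 0.03 in C4, though its RNA was still detected. All 8 glioma and astrocytic markers, among them VIM, NES, CD44, S100B, SOX2 and GFAP, passed the filter, with SOX9 close to it. Of 8 leukocyte markers 6 were in the table and 3 passed the filter, and PTPRC was under it. The summed antilog of the 6 was 110.6 to 114.7 in all libraries. Of 6 neutrophil markers 4 were in the table and 2 passed, and the sums over the 4 were 55.3 to 58.7. For the 6 endothelial markers, 4 of the 5 in the table passed. The sum over the 5 was 609.8 to 646.9 in WT, 509.0 to 533.1 in B3 and 607.4 to 627.1 in C4. VWF had the highest mean log2 value of the 5 and thus the largest part in this sum. The lower sum in B3 is therefore not read as a change of the whole set or of a cell type. All 5 epithelial markers passed, with sums of 702.4 to 1040.6 over the groups. Whether the endothelial markers bear on any result was not tested. In bulk RNA, fewer cells of a kind and less RNA per cell cannot be told apart. The members did not spread evenly within groups: 37 of 46 lay above the group mean in WT-1, 7 in WT-2, 14 in WT-3 and 11 in B3-1, with 17 to 31 in the other libraries, whereas 47.2% to 51.1% of all tested genes did in each library. The median deviation of the members was 0.04 in WT-1 and -0.02 in each of WT-2, WT-3 and B3-1. Results are given without a library where that ends or makes a call.

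Upstream sequences are shown for the 3 members with a change of at least 0.5 for which a start-site window was at hand in the RefSeq table (GRCh38.p14) and which held a core motif of bHLH-PAS factors, the family of ARNT2. They run 5′ to 3′ on the gene's strand and stop where the gene begins in GENCODE 29. Capitals mark ACGTG, the core of the hypoxia response element, or GCGTG, the core of the dioxin response element, on either strand, where CACGT and CACGC are their reverse complements. The TIMP1 stretch is chrX:47582186-47582312 on the plus strand, that of ADAMTS10 is chr19:8610736-8610965 on the minus strand and that of ADAMTS17 is chr15:100342006-100342225 on the minus strand.
TIMP1: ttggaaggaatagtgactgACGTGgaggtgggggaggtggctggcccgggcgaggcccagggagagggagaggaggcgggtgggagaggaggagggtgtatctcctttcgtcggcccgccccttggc
ADAMTS10: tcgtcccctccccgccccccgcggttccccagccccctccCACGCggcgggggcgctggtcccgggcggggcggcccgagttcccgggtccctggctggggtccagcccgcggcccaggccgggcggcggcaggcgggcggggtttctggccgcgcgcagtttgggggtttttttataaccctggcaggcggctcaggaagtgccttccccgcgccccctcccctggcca
ADAMTS17: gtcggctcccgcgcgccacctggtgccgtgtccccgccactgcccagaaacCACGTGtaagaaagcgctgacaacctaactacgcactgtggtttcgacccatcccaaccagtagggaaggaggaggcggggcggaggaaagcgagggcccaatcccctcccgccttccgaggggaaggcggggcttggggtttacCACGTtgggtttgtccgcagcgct

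Over the 250 bases before the start site, 34 members had a window. A member counted where any of its windows held the letters, while the background is a share of single windows. A gene can have several windows, so the shares are of unlike units and a higher share among members is not read as an excess. ACGTG stood in 11 of them (32.4%), against 18.5% of all 35116 windows. GCGTG stood in 11 (32.4%), against 32.2% of all windows, and the AP-1 site TGANTCA in 4 (11.8%), against 6.57%. In ADAMTS17 the first marked motif is read on both strands, because the hexamer CACGTG holds ACGTG on each. TIMP1 had a further GCGTG closer to the start site, inside the annotated gene, and ADAMTS10 had one across the gene's annotated beginning. Neither is marked. A match describes these letters only, and binding was not analysed here.

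MMP2, the gelatinase that cuts denatured collagen and basement membrane collagen, had the highest level per exon length among the members in wild-type cells. Levels between genes are compared only on this scale, the antilog of the log2 value per kilobase of exon, with lengths from GENCODE 29. The exons of all annotated transcripts were joined, which gave 16168 bases for ADAM10 and 4464 for MMP14, so the order depends on this choice of length. MMP2 stood at 51046.5, between 50023.5 and 52829.7 in the 3 libraries. The inhibitors followed: TIMP1 at 41943.5, TIMP3 at 17132.4 and TIMP2 at 13471.2. The membrane collagenase MMP14 came next at 7375.5, and ADAM12, a membrane protease that occurs in several tumours, at 3039.4. None of these 6 overlapped its neighbour in the order over the wild-type libraries. ADAM15, MMP16 and ADAM9, at 2767.5, 2698.2 and 2592.6, overlapped each other in turn. ADAM10 and ADAM17, the main sheddases of Notch receptors and of TNF and EGF-type ligands, stood at 2338.4 and 1409.1. The most abundant ADAMTS gene was ADAMTS1, a versican-cleaving enzyme, at 1983.9, which overlapped MMP17 at 2047.8.

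**Figure D1:**
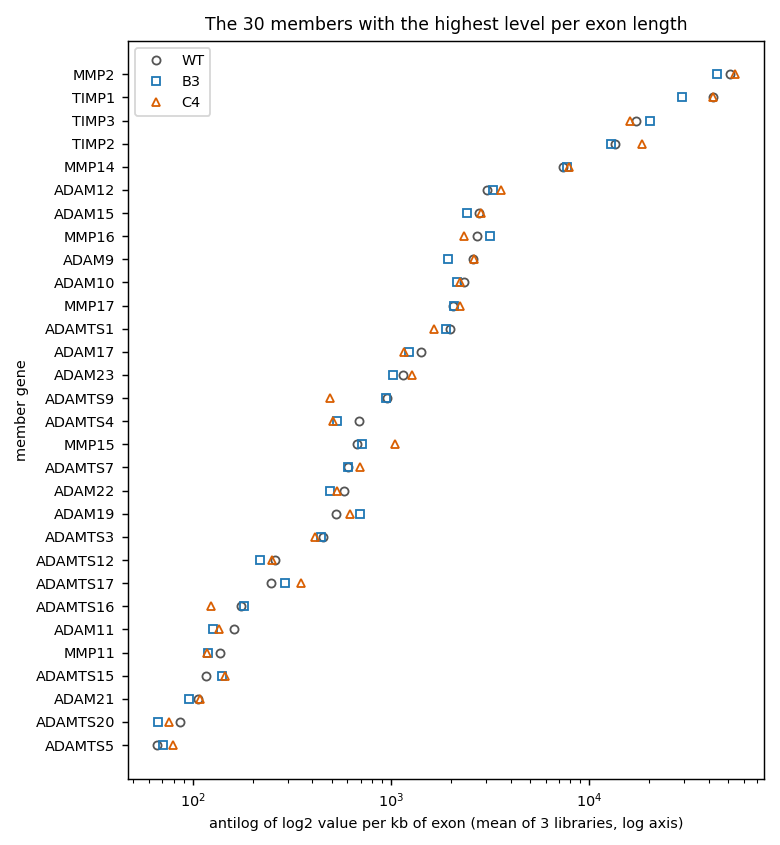
Level per exon length of the 30 highest members, as the antilog of the log2 value per kilobase of exon on a log axis; each symbol is the mean of 3 libraries of a group (circle WT, square B3, triangle C4). MMP2 and the inhibitors TIMP1, TIMP3 and TIMP2 lead in wild type, and the triangle of ADAMTS9 stands apart from its other symbols.

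In all, 46 members passed the filter and 11 did not. The 11 were MMP3, MMP7, MMP10, MMP13, MMP20, MMP21, ADAM20, ADAM28, ADAMTS2, ADAMTS8 and TIMP4, none of them above 3.32 in any library. They include the stromelysins MMP3 and MMP10, the matrilysin MMP7 and the collagenase MMP13. MMP1, the interstitial collagenase, passed narrowly, at 3.39, 3.42 and 3.38 in wild type. MMP9, the other gelatinase, lay at 5.37 to 5.60 over the 9 libraries. The deposited scale appears to draw the values of weak genes together, so that their changes are understated.

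Against wild type, 28 of the 46 tested members were called in B3, 9 higher and 19 lower. Over all genes 47.9% were called, 23.2% higher and 24.6% lower. In C4, 35 members were called, 15 higher and 20 lower, where the background was 56.2%, 28.2% higher and 28% lower. The median change of the tested members was -0.06 in B3 and 0.0018 in C4, against 0.0001 and 0.0012 over all genes tested. The median absolute change was 0.11 in B3 and 0.16 in C4, against 0.07 and 0.09. The background was not matched to the members by level, and changes of weak genes are understated on this scale. Whether level bears on the sizes or on the shares called was not tested. At equal totals per library, the member calls in B3 were 12 higher and 16 lower, and over all genes the share of calls that were higher went from 48.5% to 64.2% in B3 and from 50.2% to 61.5% in C4. Without WT-1 the B3 calls were 8 higher and 16 lower. Between the lines 32 members were called, 21 higher in C4 and 11 lower, with a background of 56.4%, 28.6% higher and 27.8% lower. By family, B3 had 3 MMP genes higher and 3 lower of 13 tested, 2 ADAM genes higher and 8 lower of 13, and 3 ADAMTS genes higher and 7 lower of 17. In C4 the counts were 5 and 4 for MMP, 4 and 5 for ADAM, and 5 and 10 for ADAMTS. Each line had 1 TIMP gene higher and 1 lower. A called change of at least 0.5 was found for 2 members in B3 (1.72% of all genes), 4 in C4 (3.38%) and 5 between the lines (3.55%). Groups did not overlap for 33 members in B3 (53.8% of all genes), 34 in C4 (60.7%) and 33 between the lines (62.3%).

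**Figure D2:**
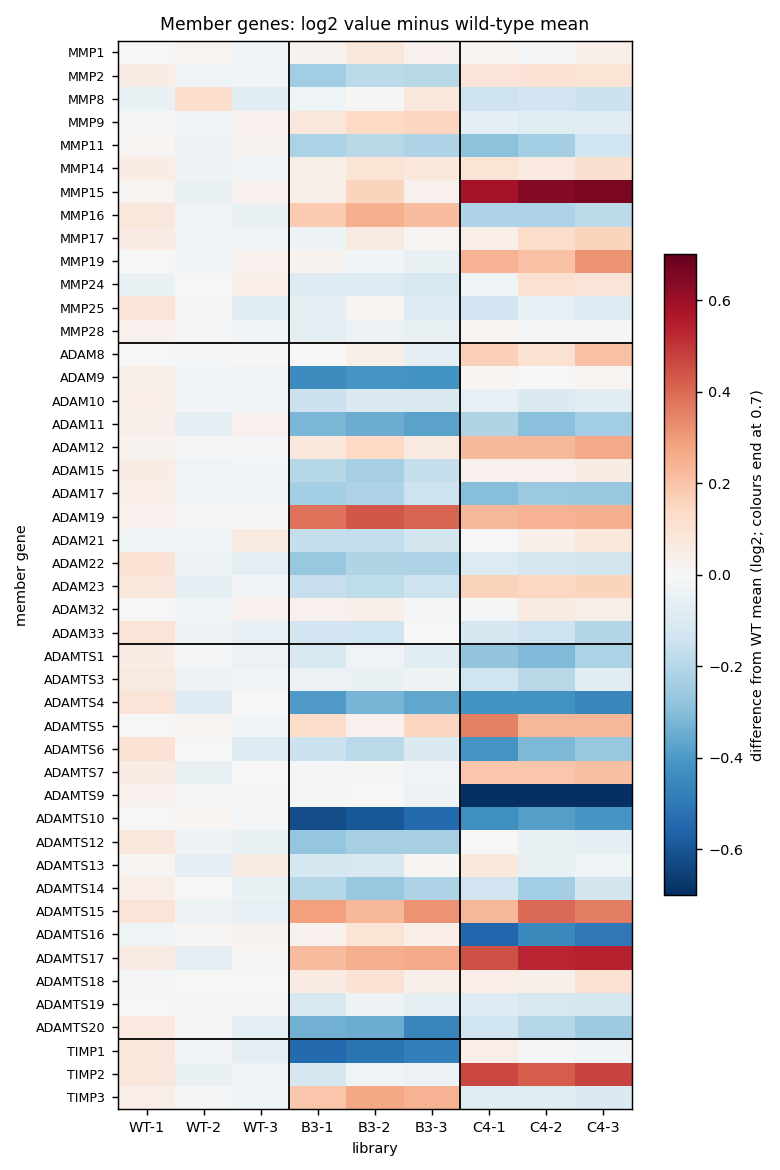
Log2 value of each of the 46 tested members minus its wild-type mean, in all 9 libraries (columns) with lines between groups and between families; red is higher and blue lower, and colours end at 0.7. The 3 libraries of a group look alike for the strong changes, such as the blue block of ADAMTS9 in C4 and of ADAMTS10 in both lines.

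Among the inhibitors, each knockout line had a different TIMP that moved most. TIMP1 (chromosome X, 47582313 to 47586789, plus strand, GRCh38) inhibits most secreted MMPs and ADAM10. It had log2 values of 16.06, 15.96 and 15.92 in WT, 15.44, 15.47 and 15.50 in B3, and 16.02, 15.97 and 15.96 in C4. All B3 libraries lay below all others, and C4 overlapped WT. The change was -0.51 ± 0.03 in B3 (limma adjusted p = 3.45e-12), a level 0.702 times that of wild type, and 0.01 in C4 (adjusted p = 0.874). C4 exceeded B3 by 0.52 (adjusted p = 9.79e-13).

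TIMP2, which binds MMP14 at the cell surface, moved in C4 instead of B3. Its values were 16.29, 16.16 and 16.19 in WT, 16.09, 16.18 and 16.17 in B3, and 16.68, 16.63 and 16.68 in C4. Only the C4 libraries stood clear of the other groups. TIMP2 rose by 0.45 ± 0.03 in C4 (limma adjusted p = 2.68e-11), 1.37 times the wild-type level, while B3 had -0.06 (adjusted p = 0.115). Without WT replicate 2 the B3 difference was called, at -0.09 and adjusted p = 0.0379, the lowest among the alternatives, where the highest was 0.507.

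TIMP3 stays bound to the matrix and inhibits ADAM17 and several ADAMTS enzymes as well as MMPs. It was at 16.31, 16.25 and 16.23 in WT, 16.46, 16.54 and 16.51 in B3, and 16.18, 16.18 and 16.17 in C4. The 3 groups did not overlap, with B3 highest and C4 lowest. TIMP3 rose by 0.24 ± 0.03 in B3 and changed by -0.09 ± 0.03 in C4 (limma adjusted p = 1.78e-07 and 0.00648). The difference between the lines was -0.33 (adjusted p = 4.14e-10). TIMP4 was under the filter in all libraries.

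MMP2 fell in B3 and rose slightly in C4. It lies on chromosome 16 (55389700 to 55506691, plus strand) and had 17.99, 17.91 and 17.92 in WT, 17.70, 17.76 and 17.75 in B3, and 18.03, 18.04 and 18.04 in C4. The 3 groups did not overlap. The change was -0.21 ± 0.03 in B3 (limma adjusted p = 1.84e-05) and 0.10 ± 0.03 in C4 (adjusted p = 0.0174). The C4 call ended without WT replicate 2 (0.08, adjusted p = 0.0728), WT replicate 3 (0.09, 0.0813) or C4 replicate 2 (0.09, 0.0603), and the alternatives spanned 0.000638 to 0.0813. The other gelatinase, MMP9, had 5.44, 5.43 and 5.48 in WT, 5.53, 5.59 and 5.60 in B3, and 5.39, 5.37 and 5.37 in C4, the opposite order of groups. Its changes were 0.12 ± 0.03 in B3 and -0.08 ± 0.03 in C4 (adjusted p = 0.00208 and 0.0409). The C4 call of MMP9 was lost without WT replicate 1 (-0.08, adjusted p = 0.0622), WT replicate 3 (-0.06, 0.154) or any C4 replicate (-0.08 to -0.07, 0.0551 to 0.102), as well as under 3 other settings. Its adjusted p spanned 0.025 to 0.205.

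Of the membrane-anchored MMPs, MMP15 moved most. MMP15, a transmembrane relative of MMP14 (chromosome 16, 58025566 to 58046901, plus strand), had 11.56, 11.49 and 11.57 in WT, 11.58, 11.69 and 11.57 in B3, and 12.12, 12.18 and 12.19 in C4. The C4 libraries lay far above the rest. MMP15 rose by 0.63 ± 0.03 in C4 (limma adjusted p = 3.41e-13), 1.54 times the wild-type level, and the difference in B3 was 0.08 (adjusted p = 0.0722). Without B3 replicate 3 that B3 difference was called (0.10, adjusted p = 0.0388), as it was at equal totals (0.11, 0.0132) and equal medians (0.09, 0.0329), while the highest adjusted p was 0.417. MMP14, which activates the MMP2 precursor, had 15.06, 14.97 and 14.99 in WT, 15.04, 15.10 and 15.08 in B3, and 15.10, 15.08 and 15.12 in C4. The B3 libraries overlapped those of WT, and the C4 libraries lay just above them. The rises were small, 0.07 ± 0.03 in B3 and 0.09 ± 0.03 in C4 (adjusted p = 0.0309 and 0.00349).

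The B3 call of MMP14 ended without WT replicate 2 (0.05, adjusted p = 0.15), WT replicate 3 (0.06, 0.12), B3 replicate 2 (0.06, 0.133) or B3 replicate 3 (0.07, 0.0692). It also ended with the replicate number as a block (0.056) and without the intensity trend (0.0733), and the lowest adjusted p was 0.00133. MMP16, another transmembrane MMP, moved in opposite directions in the lines. It had 15.07, 14.96 and 14.95 in WT, 15.18, 15.24 and 15.21 in B3, and 14.78, 14.78 and 14.81 in C4, with no overlap between groups. The changes were 0.22 ± 0.03 in B3 and -0.21 ± 0.03 in C4 (limma adjusted p = 1.24e-06 and 1.41e-06).

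Among the remaining MMPs, MMP11, a stromelysin activated inside the cell by furin, fell in both lines, by -0.21 ± 0.05 in B3 and -0.22 ± 0.05 in C4. MMP19 was at 5.87 to 5.93 in WT and 6.11 to 6.22 in C4, a rise of 0.25 ± 0.04, and at -0.02 in B3 (limma adjusted p = 0.737). MMP17, anchored by a lipid, rose in C4 by 0.11 ± 0.03, although its libraries overlapped those of WT. MMP8, the neutrophil collagenase, changed by -0.14 ± 0.05 in C4 (adjusted p = 0.0118), a call that ended without WT replicate 2 (-0.08, adjusted p = 0.13, against 0.00463 at the lowest). MMP28 fell in B3 by -0.05 ± 0.02 (adjusted p = 0.0426), a call that ended in 11 of 19 alternatives, among them without WT replicate 1 (-0.04) and without B3 replicate 1 (-0.05) or 3 (-0.05), with an adjusted p of up to 0.462. MMP24, a transmembrane MMP of neurons, was called against wild type in neither line but was higher in C4 than in B3 by 0.16. Its antisense RNA MMP24-AS1 rose by 0.39 in B3, and since no strand setting is given in the sources used here, reads of the pair cannot be told apart. The same holds for MMP25 and ADAMTS9 with their antisense RNAs. MMP1 and MMP25 were called in neither line.

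**Figure D3:**
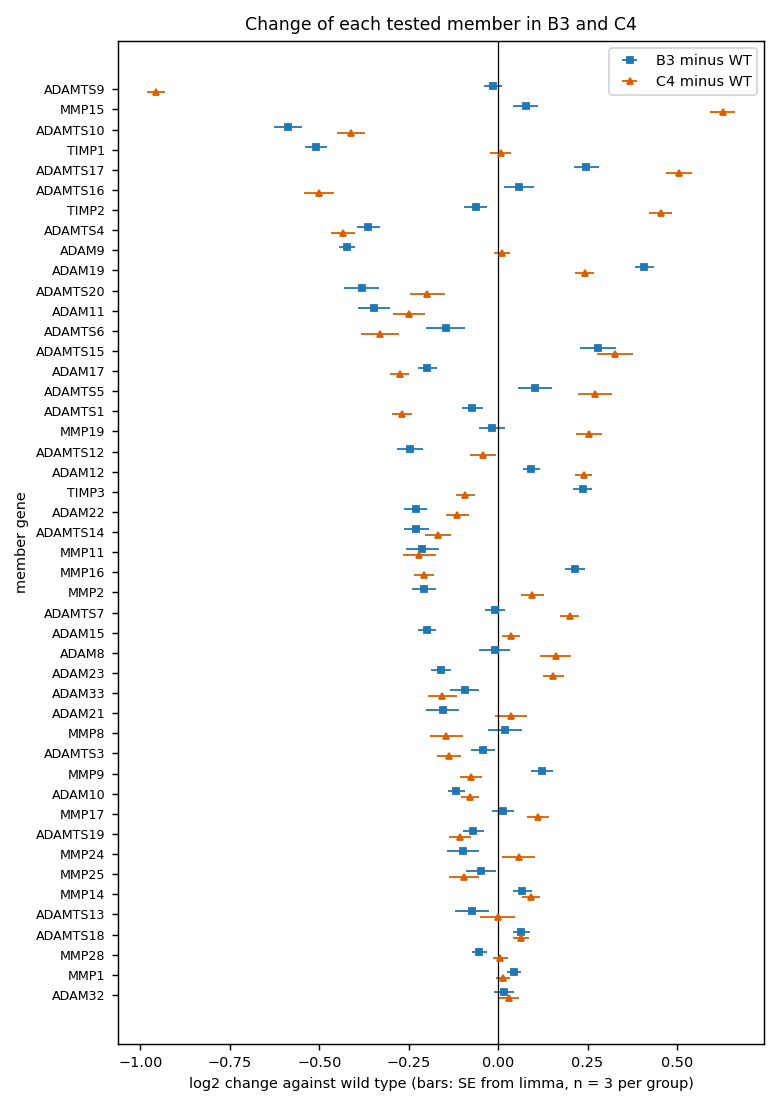
Log2 change against wild type of each of the 46 tested members, with squares for B3 and triangles for C4, bars for the SE from limma (n = 3 per group) and genes ordered by their larger absolute change. ADAMTS9 and MMP15 stand far from 0 in C4 alone, TIMP1 and ADAM9 in B3 alone, and ADAMTS10 and ADAMTS4 lie left of 0 in both lines.

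Among the ADAMs, both main sheddases were lower in both lines, by small amounts. ADAM17 had 13.93, 13.87 and 13.86 in WT, 13.65, 13.67 and 13.74 in B3, and 13.59, 13.63 and 13.62 in C4. All 6 knockout libraries lay below all 3 wild-type libraries. The changes were -0.20 ± 0.03 in B3 and -0.27 ± 0.03 in C4 (limma adjusted p = 1.26e-06 and 4.89e-09). C4 was below B3 by a further -0.08 (adjusted p = 0.0165), a call that ended without B3 replicate 3 (-0.05, adjusted p = 0.132), without C4 replicate 1 (-0.07, 0.0622) or without the intensity trend (0.0504), against 0.00626 at the lowest.

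ADAM10 had 15.25, 15.19 and 15.18 in WT, 15.06, 15.10 and 15.11 in B3, and 15.15, 15.11 and 15.13 in C4. Its changes were -0.12 ± 0.03 and -0.08 ± 0.03 (limma adjusted p = 0.000483 and 0.0104). The C4 call ended without C4 replicate 2 (-0.07, adjusted p = 0.0627), at equal totals (-0.05, 0.0891) and at equal medians (-0.05, 0.0792), against 0.00916 at the lowest.

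ADAM9, a sheddase of several membrane proteins, fell in B3 with 13.69, 13.72 and 13.71 against 14.17, 14.11 and 14.11 in WT. The change was -0.42 ± 0.02 (limma adjusted p = 5.02e-13), and C4, at 14.14, 14.13 and 14.15, differed from WT by 0.01 (adjusted p = 0.723). ADAM15, an adhesion-related ADAM with an integrin-binding motif, fell in B3 by -0.20 ± 0.02 and was at 0.04 in C4 (adjusted p = 0.221). The latter was called without WT replicate 1 (0.06, adjusted p = 0.0266), at equal totals (0.07, 0.0317) and at equal medians (0.06, 0.0317), while the highest adjusted p was 0.573.

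ADAM19 and ADAM12, both able to shed EGF-type ligands, were higher in both lines. ADAM19 had 11.96 and 11.97 in WT replicates 2 and 3, with replicate 1 slightly higher, 12.36, 12.41 and 12.38 in B3, and 12.21, 12.22 and 12.23 in C4. The rises were 0.41 ± 0.03 and 0.24 ± 0.03 (limma adjusted p = 1.08e-11 and 3.69e-08), with C4 lower than B3 by -0.17 (adjusted p = 8.99e-06). ADAM12 rose by 0.09 ± 0.02 in B3 and 0.24 ± 0.02 in C4. ADAM8 rose in C4, by 0.16 ± 0.04, and ADAM33 fell there, by -0.16 ± 0.04. ADAM21 fell in B3, by -0.16 ± 0.05, but it overlaps a pseudogene of its own family, so that its reads are uncertain.

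Of the 4 tested ADAMs without protease activity, some of which act in adhesion and at synapses, 0 rose and 3 fell in B3. In C4, 1 rose and 2 fell. Over all genes 23.2% rose and 24.6% fell in B3, and 28.2% and 28% in C4. ADAM11 fell by -0.35 ± 0.04 in B3 and -0.25 ± 0.04 in C4. ADAM22, a receptor for the LGI proteins of synapses, fell by -0.23 ± 0.03 and -0.11 ± 0.03. ADAM23, also an LGI receptor, had 12.92, 12.78 and 12.82 in WT, 12.68, 12.67 and 12.70 in B3, and 13.00, 12.99 and 13.00 in C4. It thus changed by -0.16 ± 0.03 in B3 and 0.15 ± 0.03 in C4 (limma adjusted p = 8.4e-05 and 9e-05). ADAM32 was called in neither line.

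ADAMTS9 showed the largest change against wild type of the 46 tested members, and it did so in C4. ADAMTS9 cuts versican and aggrecan and lies on chromosome 3 (64515654 to 64688000, minus strand). Its values were 13.35, 13.30 and 13.30 in WT, 13.30, 13.32 and 13.28 in B3, and 12.39, 12.35 and 12.34 in C4. The change in C4 was -0.96 ± 0.02 (limma adjusted p = 1.48e-19), a level 0.516 times that of wild type. B3 was at -0.01 (adjusted p = 0.667), and the lines differed by -0.94 (adjusted p = 2e-19). The antisense RNA ADAMTS9-AS2 changed by -0.18 in B3 and -0.23 in C4.

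The other proteoglycan-cleaving members did not move as one. ADAMTS4, an aggrecanase, had 12.87, 12.70 and 12.78 in WT, 12.39, 12.46 and 12.42 in B3, and 12.37, 12.36 and 12.33 in C4. It fell in both lines, by -0.36 ± 0.03 and -0.43 ± 0.03 (limma adjusted p = 4.79e-09 and 1.16e-10). ADAMTS1 fell in C4 by -0.27 ± 0.03. Its B3 difference of -0.07 ± 0.03 was called (adjusted p = 0.0395), but the call ended in 9 of 19 alternatives, among them without WT replicate 1 (-0.05), WT replicate 2 (-0.08), B3 replicate 1 (-0.05) or B3 replicate 3 (-0.07), with an adjusted p from 0.0177 to 0.262. ADAMTS20 fell by -0.38 ± 0.05 in B3 and -0.20 ± 0.05 in C4. ADAMTS15 rose in both lines, by 0.28 ± 0.05 and 0.33 ± 0.05, and ADAMTS5, the other main aggrecanase, rose in C4 by 0.27 ± 0.05. Of the 6 tested hyalectanases, named for these substrates, 1 rose and 3 fell in B3, and 2 rose and 4 fell in C4, where 23.2% of all genes rose and 24.6% fell in B3, and 28.2% and 28% in C4.

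Of the ADAMTS genes outside that group, ADAMTS10 fell in both lines. ADAMTS10, a fibrillin-associated member (chromosome 19, 8580242 to 8610735, minus strand), had 7.17, 7.18 and 7.16 in WT, 6.55, 6.57 and 6.63 in B3, and 6.74, 6.78 and 6.75 in C4. The groups did not overlap. The changes were -0.59 ± 0.04 in B3 and -0.41 ± 0.04 in C4 (limma adjusted p = 2.07e-11 and 4.64e-09), and C4 was above B3 by 0.18 (adjusted p = 0.000498). The values of ADAMTS10 are low, where the deposited scale may understate changes.

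ADAMTS17, a relative of ADAMTS19, rose in both lines. Its values were 11.04, 10.92 and 10.99 in WT, 11.20, 11.24 and 11.25 in B3, and 11.43, 11.52 and 11.52 in C4. The rises were 0.25 ± 0.04 and 0.51 ± 0.04 (limma adjusted p = 5.2e-06 and 3.21e-11), and the lines differed by 0.26 (adjusted p = 1.69e-06). The C4 libraries were highest and WT lowest, with no overlap. ADAMTS16 had 9.97 to 10.02 in WT, 10.02, 10.09 and 10.04 in B3, and 9.44, 9.54 and 9.49 in C4. It fell in C4 by -0.50 ± 0.04 (adjusted p = 5.8e-10) and was at 0.06 in B3 (adjusted p = 0.265).

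Enzymes that trim procollagens and COMP, a cartilage matrix protein, changed less. ADAMTS14, a procollagen N-propeptidase, fell by -0.23 ± 0.04 in B3 and -0.17 ± 0.04 in C4, and ADAMTS3 fell in C4 by -0.14 ± 0.03. ADAMTS12 fell in B3 by -0.25 ± 0.04 and was at -0.04 in C4 (limma adjusted p = 0.339). ADAMTS7 rose in C4 by 0.20 ± 0.03 and was at -0.01 in B3 (adjusted p = 0.824), with 0.02 at equal totals, 0.0052 at equal medians and 0.02 without WT replicate 1. ADAMTS7 has pseudogene copies of like sequence, so its reads are uncertain. ADAMTS6 fell in C4 by -0.33 ± 0.05 and in B3 by -0.15 ± 0.05, where the call (adjusted p = 0.0267) ended without WT replicate 1 (-0.10), WT replicate 2 (-0.15), B3 replicate 1 (-0.15) or B3 replicate 2 (-0.13), with an adjusted p of 0.00794 to 0.164. That B3 call also ended at equal totals (-0.11, limma adjusted p = 0.0876). ADAMTS18 rose by 0.06 ± 0.02 in each line. Those calls ended without WT replicate 1 (0.06 in each line), without B3 replicate 2 (0.05) and without C4 replicate 3 (0.04), and the adjusted p reached 0.142 in B3 and 0.15 in C4. Both also ended without the intensity trend (limma adjusted p = 0.0692 in B3 and 0.0605 in C4). ADAMTS19 fell in C4 by -0.11 ± 0.03. ADAMTS13, which cuts von Willebrand factor, was called in neither line.

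Taking both lines, 6 members were called higher in each and 11 lower in each, with a background of 11.6% and 12.5% of all genes. The 6 were MMP14, ADAM12, ADAM19, ADAMTS15, ADAMTS17 and ADAMTS18. The 11 were MMP11, ADAM10, ADAM11, ADAM17, ADAM22, ADAMTS1, ADAMTS4, ADAMTS6, ADAMTS10, ADAMTS14 and ADAMTS20. Both comparisons use the same wild-type libraries, so a deviation of those libraries enters both counts. Without WT-1 the counts were 5 and 9, and at equal totals they were 8 and 8. Another set of 5 members, MMP2, MMP9, MMP16, ADAM23 and TIMP3, were called with opposite signs, where 8.58% of all genes were, and 5 were called in neither line, against 28.7%.

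The log2 difference between an enzyme and an inhibitor within a library does not depend on the scaling between libraries. The 10 pairs were chosen after the values had been seen, and only shifts of a pair between groups are read. Among the 10, ADAMTS9 minus ADAMTS1, MMP2 minus MMP14 and MMP16 minus MMP14 set an enzyme against another enzyme. MMP2 minus TIMP2 was 1.73 ± 0.03 (SD, n = 3) in WT, 1.59 ± 0.02 in B3 and 1.37 ± 0.03 in C4, without overlap. MMP14 minus TIMP2 was -1.20 ± 0.02 in WT, -1.07 ± 0.02 in B3 and -1.57 ± 0.01 in C4, so this pair moved in opposite directions in the lines.

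For the inhibitor TIMP1 the shift was larger in B3. MMP2 minus TIMP1 was 1.96 ± 0.04 in WT, 2.27 ± 0.02 in B3 and 2.05 ± 0.04 in C4. ADAM10 minus TIMP1 was -0.77 ± 0.03, -0.38 ± 0.02 and -0.86 ± 0.02 in the same order. For TIMP3, ADAM17 minus TIMP3 was -2.38 ± 0.01 in WT, -2.81 ± 0.05 in B3 and -2.56 ± 0.02 in C4. ADAMTS4 minus TIMP3 was -3.48 ± 0.07, -4.08 ± 0.01 and -3.83 ± 0.01. In each comparison of these 6 pairs the two-sided exact permutation p was 0.1, the smallest that 3 against 3 libraries allow, and 0.107 after Benjamini-Hochberg adjustment over the 30 comparisons. Of the other pairs, ADAM10 minus TIMP3 and MMP2 minus MMP14 overlapped between WT and C4 (exact p = 0.4 and 0.8). MMP2 minus MMP14 was 2.94 ± 0.00492 in WT, 2.66 ± 0.00911 in B3 and 2.94 ± 0.03 in C4.

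**Figure D4:**
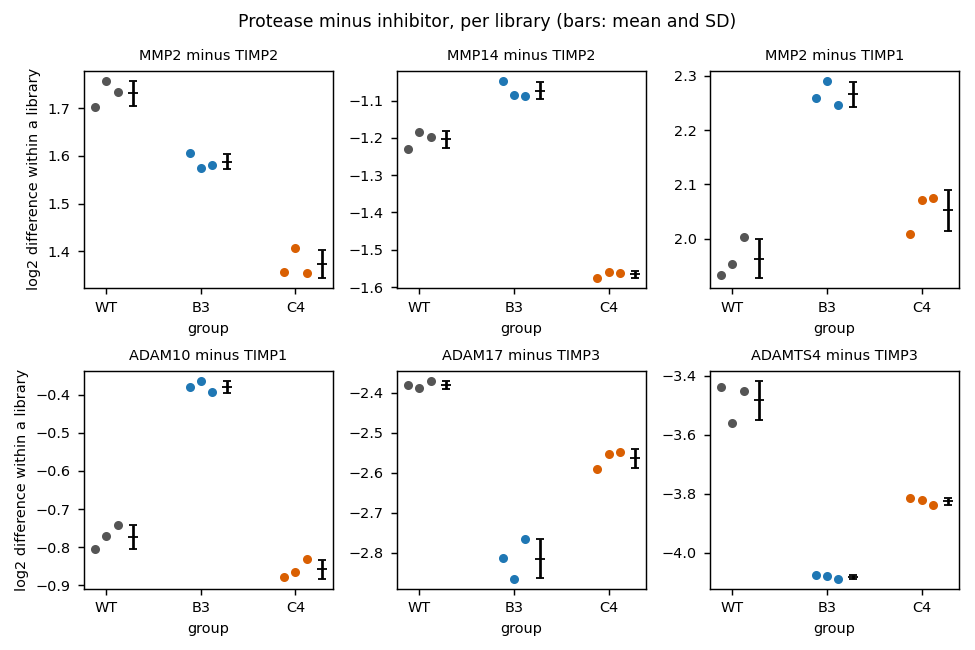
Log2 difference between a protease and an inhibitor within each library, for 6 pairs; dots are the 3 libraries of a group and bars the mean and SD, and each panel has its own axis range. The groups do not overlap in any panel; MMP14 minus TIMP2 is highest in B3 and lowest in C4.

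Some members lie among genes that were themselves shifted in a line. For each member the 10 tested genes on either side along the chromosome were taken, and their median change was set beside the same for 14830 windows of all genes. For 13 of the 92 changes against wild type (46 members in 2 lines), fewer than 5% of all windows had a median as far from 0 on that side. Windows of both signs can meet this rule, up to 5% of all windows on each side. The count of 13 of 92 is thus not to be set against 5% alone. Windows can also share genes, as those of ADAM9 and ADAM32 do. ADAM9, on chromosome 8, fell by -0.42 in B3, and its neighbours had a median of -0.14 with 15 of 20 called lower, a median that 3.96% of all windows reached. MMP16, also on chromosome 8, changed by -0.21 in C4 beside a median of -0.16, with 17 of 20 neighbours lower (3.49% of windows). MMP2 changed by 0.10 in C4 beside a median of 0.11, with 13 of 20 higher (1.44%). MMP19 rose by 0.25 there beside 0.11, with 14 of 20 higher (1.58%).

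MMP15 rose by 0.63 in C4 beside a median of 0.11, with 10 of 20 higher (1.94%). ADAMTS20 fell by -0.38 in B3 beside -0.15, with 14 of 20 lower (3.59%), but in C4 it changed by -0.20 beside neighbours at 0.10 (2.25%). ADAM22 changed by -0.11 in C4 beside -0.16, with 15 of 20 lower (3.26%), and ADAMTS18 by 0.06 in C4 beside 0.11, with 13 of 20 higher (1.25%). Against their neighbours moved ADAM11 in C4, at -0.25 beside 0.09 (4.75%), and MMP28 in B3, at -0.05 beside 0.08 (1.67%). MMP19 in B3 had -0.02 beside -0.14 (3.92%). ADAM32, next to ADAM9, had 0.02 in B3 beside a median of -0.20, with 17 of 20 lower (1.43%). For other members with strong changes the neighbours' median lay between -0.03 and 0.06. It was -0.01 for TIMP1 in B3, -0.0033 for ADAMTS10 in B3, 0.06 for ADAMTS9 in C4, 0.0017 for TIMP2 in C4, -0.03 for ADAMTS16 in C4 and -0.01 for ADAMTS17 in C4. The part of the neighbourhood in the members' changes was not tested.

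**Figure D5:**
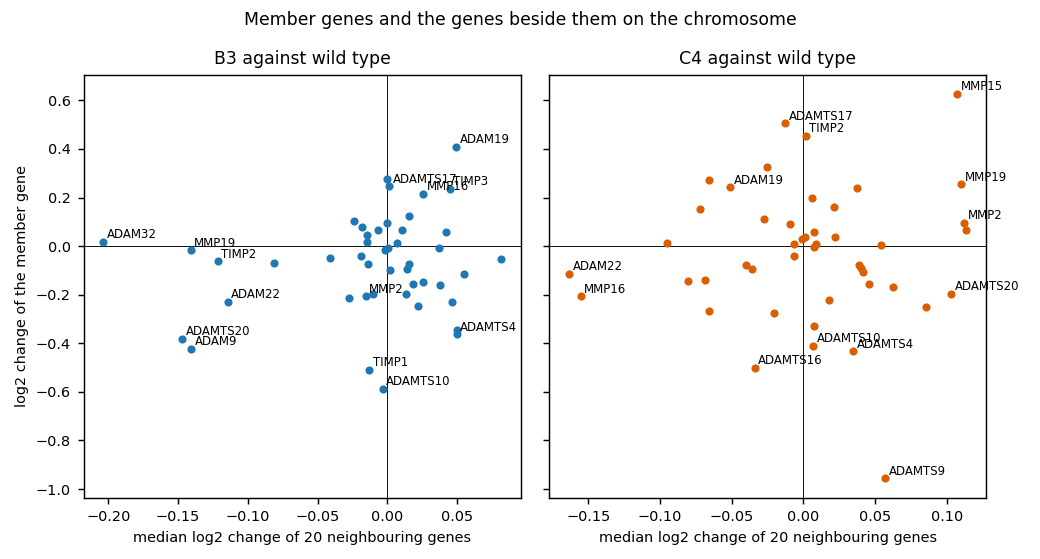
Log2 change of each tested member (vertical axis) against the median log2 change of its 20 neighbouring genes (horizontal axis), in B3 on the left and C4 on the right; each point is a member and selected ones are named. ADAM9 and ADAMTS20 in B3 and MMP16 in C4 lie at the low left, MMP15, MMP19 and MMP2 in C4 at the right, and TIMP1, ADAMTS10 and ADAMTS9 within 0.06 of the vertical line at 0.

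Other genes of the protease network are read against the same background, 23.2% of all genes higher and 24.6% lower in B3, and 28.2% and 28% in C4. These lists, and those of substrates and promoter factors below, were chosen with earlier results of these data known. Their shares describe the listed genes and are not an independent test. Of 18 tested genes that process or activate these enzymes, 2 rose (11.1%) and 10 fell (55.6%) in B3, and 4 rose (22.2%) and 10 fell (55.6%) in C4. ITGB3, an integrin subunit that can hold MMP2 at the cell surface, changed by -0.39 ± 0.03 in B3 and -0.81 ± 0.03 in C4. FRMD8, which keeps ADAM17 and its iRhom partners at the surface, changed by -0.28 ± 0.03 and -0.52 ± 0.03, and the integrin subunit ITGAV by -0.20 ± 0.03 and -0.44 ± 0.03. Of 14 inhibitors and clearance factors outside the TIMP family, 1 rose (7.14%) and 8 fell (57.1%) in B3, and 4 rose (28.6%, near the background) and 7 fell (50%) in C4. A2M, alpha-2-macroglobulin, which traps proteases of all classes, had 15.38, 15.27 and 15.25 in WT, 14.07, 14.05 and 14.15 in B3, and 15.56, 15.49 and 15.50 in C4. It changed by -1.20 ± 0.03 in B3 and rose by 0.22 ± 0.03 in C4 (limma adjusted p = 4.72e-19 and 1.89e-06). Neighbouring genes on the chromosome were taken for members only, so whether those of A2M changed as well was not tested. TFPI2, a secreted protease inhibitor of the Kunitz type, changed by -0.77 ± 0.04 in C4, with -0.02 in B3 (adjusted p = 0.682).

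Substrates were measured alongside. Of 25 tested membrane substrates of shedding, 3 rose (12%) and 17 fell (68%) in B3, and 4 rose (16%) and 14 fell (56%) in C4, against the background of 23.2% and 24.6% in B3 and of 28.2% and 28% in C4. The Notch ligand JAG1 changed by -0.52 ± 0.03 and -0.83 ± 0.03, the receptor MET by -0.37 ± 0.02 and -0.77 ± 0.02, and NOTCH3 by -0.30 ± 0.04 and -0.62 ± 0.04. Of 18 matrix substrates, 3 rose (16.7%) and 10 fell (55.6%) in B3, and 3 rose (16.7%) and 7 fell (38.9%) in C4. ACAN, the aggrecan gene and a substrate of ADAMTS4, ADAMTS5 and ADAMTS9, had 12.28, 12.19 and 12.24 in WT, 12.86, 12.83 and 12.80 in B3, and 11.14, 11.21 and 11.15 in C4. It rose by 0.60 ± 0.03 in B3 and changed by -1.07 ± 0.03 in C4 (limma adjusted p = 1.23e-13 and 9.82e-19). The small proteoglycan genes BGN and DCN changed by -0.36 ± 0.03 and 0.28 ± 0.05 in B3, and by -0.86 ± 0.03 and -0.50 ± 0.05 in C4.

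Of 18 genes for AP-1, ETS and NF-kB factors, which are known to act on MMP promoters, 4 rose (22.2%) and 10 fell (55.6%) in B3, and 4 rose (22.2%) and 9 fell (50%) in C4. The share that rose in B3 was near the background of 23.2%, and 24.6% of all genes fell there, while 28.2% rose and 28% fell in C4. NFKB2 and RELB, of the non-canonical NF-kB branch, each changed by -0.15 in B3, and by -0.57 ± 0.02 and -0.54 ± 0.03 in C4. The AP-1 gene JUNB changed by -0.34 ± 0.03 in B3 and -0.52 ± 0.03 in C4. The median change of these 5 lists lay between -0.27 and -0.12 in B3 and between -0.19 and -0.06 in C4, where all tested genes had 0.0001 and 0.0012.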

How the data were processed

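The table holds log2 values that the authors deposited, scaled between libraries, with 1 column per library. The submitters' processing notes name hg38 and the tools DESeq2 (without a version), Subread 1.6.3 and STAR 2.7.3a, without the role of each. The values look like regularized logs, an inference from their spread, and such a scale understates changes of weak genes. Reads could not be recovered, so count tests were not run.

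Of 19356 genes, the 16457 whose antilogs averaged 10 or more entered the tests. One limma 3.58.1 fit (R 4.3.3) took a coefficient per group, with an intensity trend, two-sided, adjusted over all tested genes. It was tested on simulated data. Members, gene lists and alternatives were chosen with earlier results of these data known. Members described singly are those called with a change of at least 0.5, the TIMP genes, MMP2, MMP14, ADAM10 and ADAM17. Others follow by role. The ratio pairs, neighbour windows and motifs were chosen after values had been seen. From each list of other genes the 3 largest called changes were named, except 1 gene that is not reported here. Positions and exon lengths are from GENCODE 29, which held 92.9% of tested symbols, and upstream bases from RefSeq (GRCh38.p14). The 19 alternatives were other filters, pseudocounts, scalings, moderation, samples fitted, a replicate block and leaving out each library. No label gives a batch. Same-numbered libraries did not deviate together (correlations of deviations from -0.23 to 0.016), while WT-1 and B3-3, of unlike number, had 0.225. Deviations sum to 0 within a group, which ties these correlations to each other. They thus cannot exclude a pairing.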

Additional observations from a re-analysis of the deposited data

Results flagged for a closer look

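The change against wild type differed between B3 and C4 by limma's test of the difference itself (C4 minus B3) for 32 of the 46 tested members, where 56.4% of all genes were called. C4 was above B3 for the MMP genes MMP15 by 0.55, MMP2 by 0.30, MMP19 by 0.27, MMP24 by 0.16, MMP17 by 0.097 and MMP28 by 0.058. It was above for ADAM9 by 0.43, ADAM23 by 0.31, ADAM15 by 0.23, ADAM21 by 0.19, ADAM8 by 0.17, ADAM12 by 0.15 and ADAM22 by 0.12. It was also above for ADAMTS17 by 0.26, ADAMTS7 by 0.21, ADAMTS12 by 0.20, ADAMTS20 by 0.18, ADAMTS10 by 0.18 and ADAMTS5 by 0.17, and for TIMP2 and TIMP1 by 0.52 each. C4 was below B3 for ADAMTS9, at -0.94, ADAMTS16, at -0.56, MMP16, at -0.42, TIMP3, at -0.33, MMP9, at -0.20, ADAMTS1, at -0.20, ADAMTS6, at -0.18, ADAM19, at -0.17, MMP8, at -0.16, ADAMTS3, at -0.096, and ADAM17, at -0.076.

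B3 and C4 are 1 line each, so a difference between them has no replication over lines. Leaving out single libraries ended 4 of these calls: ADAM17 without B3 replicate 3 (-0.048) or C4 replicate 1 (-0.065), ADAMTS3 without C4 replicate 2 (-0.066), and MMP17 without B3 replicate 1 (0.073) or C4 replicate 3 (0.074). The fourth was MMP28, without B3 replicate 1 (0.052) or 3 (0.057) or C4 replicate 1 (0.051) or 3 (0.057). For some flagged members the neighbouring genes differed between the lines as well. In C4 against B3 the neighbours' median was 0.28 for MMP19 (reached by 0.695% of windows) and 0.26 for ADAMTS20 (0.991%). It was -0.25 for MMP16 (1.98%) and 0.19 for ADAM9 (3.13%), but 0.0019 for TIMP1 and 0.046 for ADAMTS9. The part of the neighbourhood in these differences was not tested.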

How the results depend on the processing

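No count of called members or of list genes left a range of 1.5 times its value under any of the 19 alternatives. Leaving out 1 library gave 8 to 9 members higher and 16 to 20 lower in B3, 14 to 15 higher and 19 to 20 lower in C4, and 19 to 22 higher and 10 to 12 lower between the lines. In both lines it gave 5 to 6 higher and 9 to 12 lower. With the replicate block the counts were 8 and 17 in B3, 15 and 20 in C4, and 21 and 11 between the lines. Whether the numbers pair the libraries is not known. Calls held in every alternative for 7 of 9 higher and 16 of 19 lower members in B3, 13 of 15 and 17 of 20 in C4, and 19 of 21 and 9 of 11 between the lines. The calls lost in at least 1 alternative were those of ADAMTS18, MMP14, ADAMTS1, ADAMTS6 and MMP28 in B3, ADAMTS18, MMP2, ADAM10, MMP8 and MMP9 in C4, and MMP17, MMP28, ADAM17 and ADAMTS3 between the lines. Signs changed for uncalled differences only. At equal totals B3 gave 0.019 for ADAMTS9, 0.024 for ADAMTS7 and 0.016 for MMP19, and at equal medians 0.0052 for ADAMTS7. Leaving out 1 library, the B3 differences spanned -0.024 to 0.0019 for ADAMTS9, -0.035 to 0.017 for ADAMTS7 and -0.037 to 0.0014 for MMP19, and the C4 differences -0.024 to 0.047 for TIMP1 and -0.0014 to 0.032 for ADAM9. The cause was not tested. edgeR and DESeq2 fits were not run, because reads could not be recovered, and depth limits could not be set without counts.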
